A study of Mus musculus with 6 samples.

Results

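The type I and type II keratin gene clusters were examined in NMuMG cells, an established epithelial line from normal mouse mammary gland, by ATAC-seq, in which the transposase Tn5 inserts sequencing adapters into open DNA. The members were all deposited accessible regions that overlapped chr15:101170000-101880000, the window with the type II keratins Krt7, Krt5 and Krt8 and the type I keratin Krt18, or chr11:99130000-100140000, the window with the type I keratins Krt10, Krt19, Krt14 and Krt17, on the mouse build mm9. They numbered 69 of 42310 regions in cells given the vehicle DMSO, 40 of 25922 in cells given BRM014 for 6 h, and 50 of 38422 in cells given BRM014 for 30 h. In DMSO 36 members lay in the type II window of 710 kb and 33 in the type I window of 1010 kb. BRM014 blocks the ATPases that drive SWI/SNF, a family of complexes that slide and evict nucleosomes. All cells were labelled wild type, and each group had 2 biological replicates that the authors pooled into 1 list. No replicate values were at hand, so no treatment test was possible, and how far a second DMSO list would differ is not known. The DMSO list is named for 30 h, and both treated lists were compared with it.

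Keratins are the intermediate filament proteins of epithelia, and a filament needs a type I (acidic) and a type II (basic) partner. Krt8 pairs with Krt18, and also with Krt19, in simple epithelia such as the luminal cells of the mammary gland, where Krt7 is found as well. Krt5 pairs with Krt14 in basal and myoepithelial cells, Krt17 is a keratin of basal cells and of wounded skin, and Krt10 pairs with Krt1 in differentiating epidermis. The genes of each type stand side by side, except Krt18, a type I gene that lies beside Krt8 in the type II cluster. In the RefSeq gene order (GRCm38.p6), 50 of the 52 keratins listed for this work were found, 24 on chromosome 15 and 26 on chromosome 11. Roles were assigned by lists set for this work, and a different assignment would change the counts. By these lists the 24 on chromosome 15 were 3 simple-epithelial, 5 basal or stress, 6 differentiating stratified epithelial and 10 hair or root sheath keratins. The 26 on chromosome 11 were 3, 5, 5 and 13 in the same order, and 23 genes of keratin-associated proteins, which bind hair keratins, stood between them. On chromosome 15 the run of keratin genes opened with Krt80, Krt7 and hair keratins, went on through Krt75, Krt6b, Krt6a and Krt5 to the epidermal Krt2 and Krt1, and closed with Krt8 and Krt18. On chromosome 11 it opened with Krt24 and the root sheath keratins, went through Krt10, Krt20, Krt23, the keratin-associated proteins and hair keratins, and closed with Krt13, Krt15, Krt19, Krt9, Krt14, Krt16, Krt17 and Krt42. The peak lists are on mm9 and this annotation is on another build, so no region was tied to a gene, and regions are named by their mm9 position. RNA and protein were not measured in this series, so the data say nothing of which keratins these cells made.

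The letters before the start sites of 4 genes are shown because Krt8 with Krt18 and Krt5 with Krt14 are the filament pairs of luminal and basal cells. They are the 150 bases before the RefSeq start, 5′ to 3′, in GRCm38.p6 coordinates that must not be set beside the mm9 positions below, and capitals mark a match to a searched motif that lies wholly in those bases.
Krt8 (chr15:102004343-102004492, minus strand): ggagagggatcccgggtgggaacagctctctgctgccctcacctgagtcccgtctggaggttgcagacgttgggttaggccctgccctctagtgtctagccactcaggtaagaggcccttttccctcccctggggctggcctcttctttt
Krt18 (chr15:102028066-102028215, plus strand): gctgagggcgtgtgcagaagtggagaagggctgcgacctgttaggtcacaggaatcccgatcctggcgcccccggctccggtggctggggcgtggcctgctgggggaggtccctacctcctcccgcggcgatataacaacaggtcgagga
Krt5 (chr15:101712906-101713055, minus strand): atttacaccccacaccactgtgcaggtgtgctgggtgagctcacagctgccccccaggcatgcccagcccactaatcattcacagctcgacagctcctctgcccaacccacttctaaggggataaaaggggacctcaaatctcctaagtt
Krt14 (chr11:100206031-100206180, minus strand): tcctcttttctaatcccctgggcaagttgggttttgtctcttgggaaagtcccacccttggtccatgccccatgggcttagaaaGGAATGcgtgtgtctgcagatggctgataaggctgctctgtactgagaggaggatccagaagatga
The search used the RefSeq promoter windows, which run past the start, which were at hand for 6 of the 8 named keratins, Krt7, Krt5, Krt8, Krt18, Krt10 and Krt14, and read both strands. The TATA box letters TATAAA, on either strand, were in Krt8, though not wholly in the 150 bases shown, and in Krt10. They were in 13.6% of the 32851 promoters searched. The GC box GGGCGG was in Krt7 and in 35.7% of promoters, and GGAATG, the letters that TEAD factors bind, was in Krt14 and in 14.7%. The AP-1 letters TGANTCA were in 0 of the 6 and in 7.81% of promoters. These matches only describe the letters.

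Each deposited region has a fold enrichment, the pileup of reads at its summit over the local background, as the authors' peak caller gave it. The pileup and the background were recovered from this ratio and the deposited -log10 p, and the lowest background of a list served as its relative depth. Set against DMSO, depth came to 63.0% at 6 h and 80.7% at 30 h. A region with 100 reads in DMSO was therefore expected to hold 63.0 and 80.7 at equal openness, and the pileup found is given over the pileup so expected. A DMSO region was followed by an overlap of at least 1 bp, and is called missing when no treated region overlapped it, which is not the same as closed. Intervals in parentheses are 95% Wilson intervals, which count regions as independent and cover no error but that of counting.

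The type I cluster had the larger share of DMSO regions no longer called after BRM014. At 6 h 20 of its 33 regions were missing, 60.6% (43.7 to 75.3%), against 43.6% of all DMSO regions. At 30 h 16 were missing, 48.5% (32.5 to 64.8%), against 26.1% of all. At both times 15 were missing, 45.5% (29.8 to 62.0%), against 23.7% of all. On the rest of chromosome 11 the shares were 38.9% at 6 h and 23.7% at 30 h. The shares of the whole list thus lay just under the lower limit at 6 h and under it at 30 h and at both times, but no test of the difference was made.

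In the type II cluster the shares were close to those of the whole list. At 6 h 13 of its 36 regions were missing, 36.1% (22.5 to 52.4%), and at 30 h 10 were missing, 27.8% (15.8 to 44.0%). At both times 9 were missing, 25% (13.8 to 41.1%). The rest of chromosome 15 had 40.8% missing at 6 h and 24.7% at 30 h. The intervals of the type I and type II clusters overlapped at each time.

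Missing and kept members differed in strength in both clusters. The 12 type I regions kept at both times had DMSO pileups from 60 to 458 with a median of 225.5, and the 15 missing at both times from 40 to 188 with a median of 68. In the type II cluster the 22 kept at both times ranged from 50 to 856 with a median of 262, and the 9 missing at both times from 36 to 251 with a median of 49. Another 5 type I and 4 type II regions were missing at 6 h only, 15.2% and 11.1%, against 19.9% of all DMSO regions. In each cluster 1 region was missing at 30 h only, 3.03% of type I and 2.78% of type II, against 2.33% of all. Over the whole list the medians were 218 reads for regions kept at both times and 64 for those missing at both. The ranges of kept and missing regions overlapped in both clusters.

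**Figure D1:**
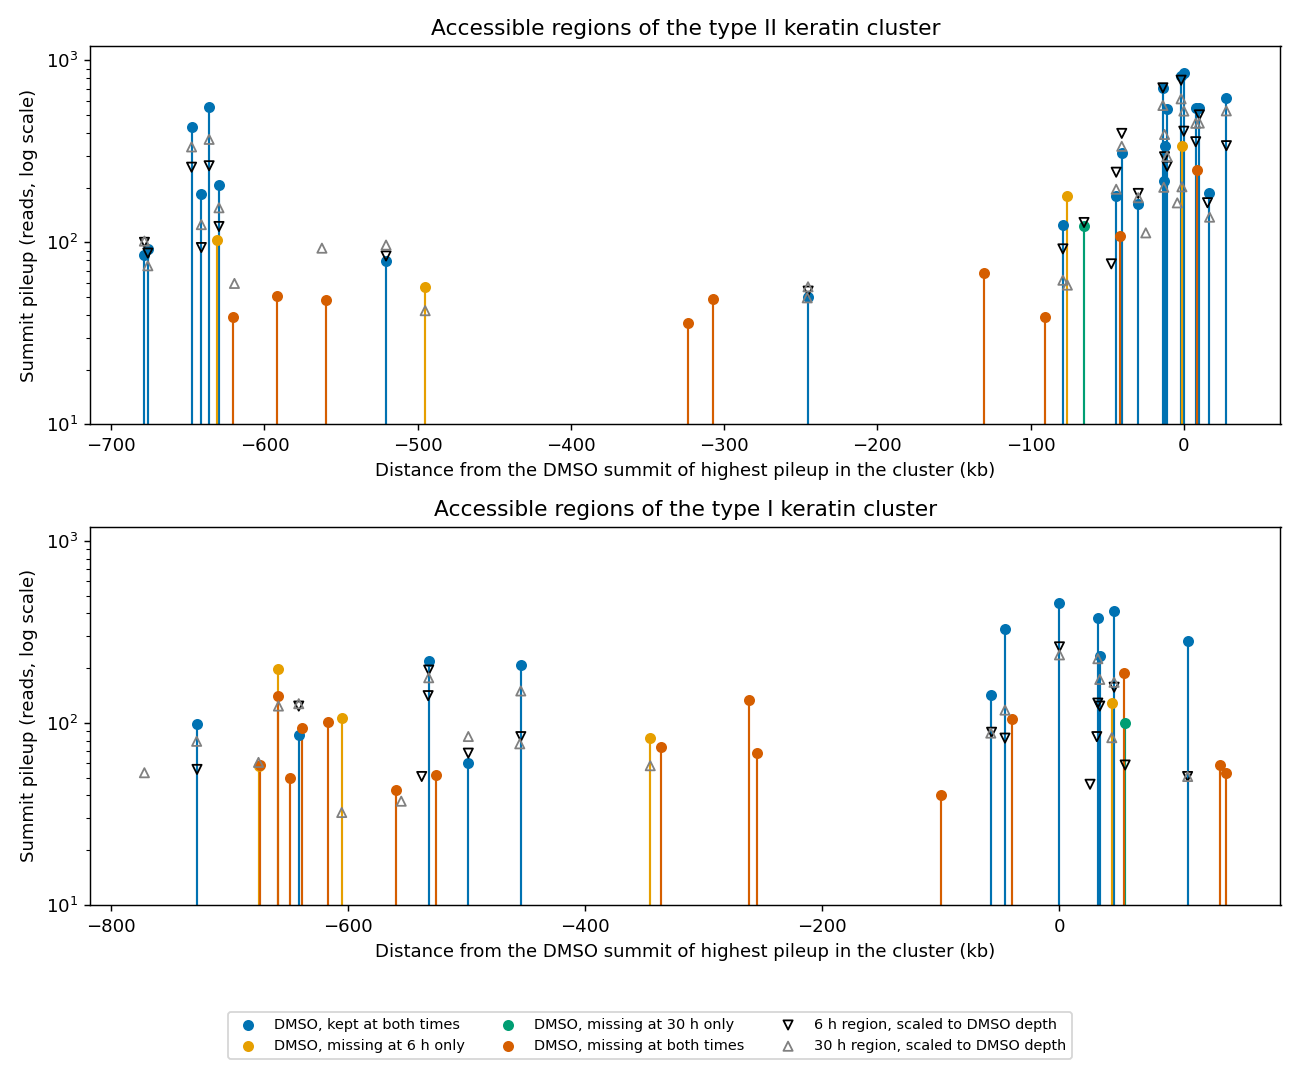
Summit pileup of each DMSO region (filled circles on stems, log scale, coloured by whether it was still called after BRM014) against its distance in kb from the summit of highest pileup in its cluster, with 6 h and 30 h regions as open triangles scaled to the DMSO depth. In the type II cluster most kept regions stand in 2 groups near the ends of the window with low, mostly missing regions between them. In both clusters the treated values of the strongest regions lie below the DMSO values.

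At equal expected pileup the clusters could be set beside the whole list. Among DMSO regions whose expected pileup was between 64 and 128 at the 6 h depth, 7 of 8 type I regions were missing, 87.5% (52.9 to 97.8%), against 39.0% of all DMSO regions in that class and 3 of 9 type II regions, 33.3% (12.1 to 64.6%). At an expected pileup of 128 and over, 0 of 8 type I regions were missing at 6 h, with an upper limit of 32.4%, and 2 of 15 type II regions, 13.3% (3.74 to 37.9%), against 8.89% of all. At 30 h, 6 of 12 type I regions between 64 and 128 were missing, 50% (25.4 to 74.6%), against 27.0% of all and 2 of 6 type II regions. At 128 and over, 1 of 10 type I and 1 of 20 type II regions were missing at 30 h, against 4.80% of all. Of regions expected at 64 or more, 43.8% of 16 type I and 20.8% of 24 type II regions were missing at 6 h, against 22.8% of all, and 31.8% of 22 type I and 11.5% of 26 type II regions at 30 h, against 13.7% of all. The whole-list share lay outside the type I interval in the class of 64 to 128 at 6 h, in that of 32 to 64 at 30 h, where 9 of 11 were missing (81.8%, 52.3 to 94.9%) against 50.8% of all, and in the combined group of 64 or more at both times, where the intervals began at 23.1% and 16.4%. The classes hold few regions and were chosen with earlier results of these data known.

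**Figure D2:**
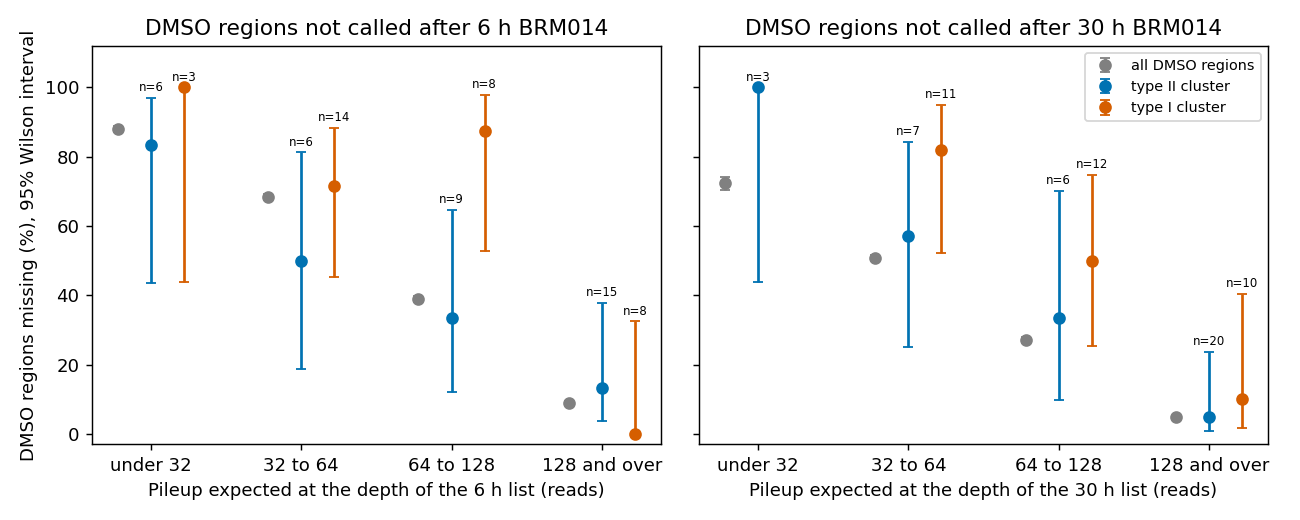
Share of DMSO regions missing at 6 h (left) and 30 h (right), in percent with 95% Wilson intervals, in 4 classes of the pileup expected at the depth of the treated list, for all DMSO regions and for the regions of each cluster (n above the interval). The type I point between 64 and 128 at 6 h is at 87.5%, against 39.0% for all DMSO regions.

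The strong type I regions mostly stayed called but held fewer reads than expected from depth. Pileups found at 6 h in the 8 regions with an expected pileup of at least 128 were 0.18 to 0.90 of those expected, with a median of 0.39, against a median of 0.72 over all 13569 DMSO regions of that strength, missing ones counted as 0. At 30 h the 9 kept of the 10 such regions were at 0.18 to 0.81, with a median of 0.59, against 0.92 over all kept regions of that strength. All 8 at 6 h and all 9 at 30 h were below 1, as were 70.1% and 61.2% of all kept regions of that strength. In the type II cluster the 13 kept of 15 at 6 h were at 0.47 to 3.27 with a median of 0.66, against 0.78 over all kept regions of that strength, and with missing regions as 0 the median was 0.60. At 30 h the 19 kept of 20 were at 0.33 to 1.15 with a median of 0.78, against the 0.92 given above. Below 1 were 11 of these 13 type II regions at 6 h and 15 of the 19 at 30 h. The value of 3.27 belongs to chr15:101835309-101835578, whose treated region at 6 h also covers its stronger neighbour, and the neighbour's reads set it. At 30 h 1 treated region likewise covers chr15:101217621-101218017 and chr15:101218142-101219196, which gives the first, a region of 103 reads in DMSO that was missing at 6 h, a value of 1.5.

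Among the type I regions, chr11:99974712-99975462 had the highest pileup, 458 in DMSO, 165 at 6 h and 191 at 30 h. These were 0.57 and 0.52 of the pileups expected, and its fold enrichment was 20.9 in DMSO, 21.6 at 6 h and 23.8 at 30 h. The pileup was thus below the expected one at both times, while the ratio to local background in each list stayed above 20. The local background, not scaled for depth, was itself lower after treatment, at 20.9 reads in DMSO, 6.7 at 6 h and 7.1 at 30 h. Depth was 63.0% of DMSO at 6 h and 80.7% at 30 h. No sample is labelled as an input control, so background and pileup may not be independent of each other.

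The region with the highest fold enrichment of the cluster, 21.5, was chr11:99928693-99929461. Its pileup was 328 in DMSO, 52 at 6 h and 95 at 30 h, or 0.25 and 0.36 of those expected. It remained called in both treated lists with fewer reads than depth alone would give.

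The lowest value of a kept member was at chr11:100082781-100083672. It held 282 reads in DMSO, 32 at 6 h and 41 at 30 h, which was 0.18 of the expected pileup at each time. It was thus equally far below the expected pileup at 6 h and at 30 h.

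A group of 3 kept regions stood between these. At chr11:100006265-100007816 the pileup was 379 in DMSO, 81 at 6 h and 182 at 30 h, and at chr11:100008912-100009262 it was 233, 78 and 140. At chr11:100020654-100021537 it was 410, 99 and 135. Relative to the pileup expected these were 0.34, 0.53 and 0.38 at 6 h, and 0.59, 0.74 and 0.41 at 30 h, so each was nearer to the expected value at 30 h. Higher values at 30 h than at 6 h were found in 8 of the 12 type I regions kept at both times, and in 70.3% of all such regions.

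In the first part of the type I window 5 regions of high fold enrichment were followed. At chr11:99441995-99443348 the pileup was 218 in DMSO, 123 at 6 h and 143 at 30 h, or 0.90 and 0.81 of that expected, the nearest to 1 among the 8 strong regions at 6 h. At chr11:99520409-99520957 it was 209, 53 and 121, or 0.40 and 0.72. At chr11:99247158-99247985 it was 99, 35 and 64, or 0.56 and 0.80, with the 6 h main summit 317 bp from that of DMSO. These 3 were kept at both times with fewer reads than expected. By contrast chr11:99316033-99316665, with 199 reads in DMSO, was missing at 6 h and had 100 reads at 30 h, 0.62 of that expected. Likewise chr11:99629537-99630248, with 83 reads, was missing at 6 h and had 47 at 30 h, 0.70 of that expected. The last of the high fold enrichments, chr11:99916930-99917967, had 143 reads in DMSO, 56 at 6 h and 71 at 30 h, and was at 0.62 both times. Its main summit lay 650 bp from that of DMSO at 6 h and 25 bp at 30 h, so the equal values rest on different summits.

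Of the 15 type I regions missing at both times, 4 had an expected pileup of at least 64 at 6 h. The strongest, chr11:100029306-100029940, held 188 reads in DMSO, of which 118 were expected at 6 h and 152 at 30 h. It lay 152 bp before chr11:100030093-100030653, a region of 100 reads that was the only type I member missing at 30 h alone and had 37 reads at 6 h. The others were chr11:99315340-99315803 with 141 reads, chr11:99712710-99713367 with 134 and chr11:99934986-99935724 with 105. The first of these lay 229 bp before the region of 199 reads that was missing at 6 h only. The weaker 11 held 40 to 101 reads.

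At 30 h 3 of the 17 kept type I regions were above the expected pileup, against 47.9% of all kept regions, and at 6 h 2 of 13, against 35.1%. At chr11:99333280-99334067 the pileup was 86 in DMSO, 78 at 6 h and 103 at 30 h, or 1.44 and 1.48 of that expected. At chr11:99476127-99476712 it was 60, 43 and 68, or 1.14 and 1.40, and at chr11:99299191-99299625, missing at 6 h, it was 58 and then 49, or 1.05. All 3 held fewer reads in DMSO than the median DMSO region, which had 129. A weak region counts as kept only if its treated pileup was high enough to be called, so low values are left out by construction.

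The remaining type I regions missing at 6 h only were chr11:99369327-99370146, with 107 reads in DMSO and 26 at 30 h, and chr11:100018766-100019637, with 129 and 67. They were at 0.30 and 0.64 of the expected pileup at 30 h.

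**Figure D3:**
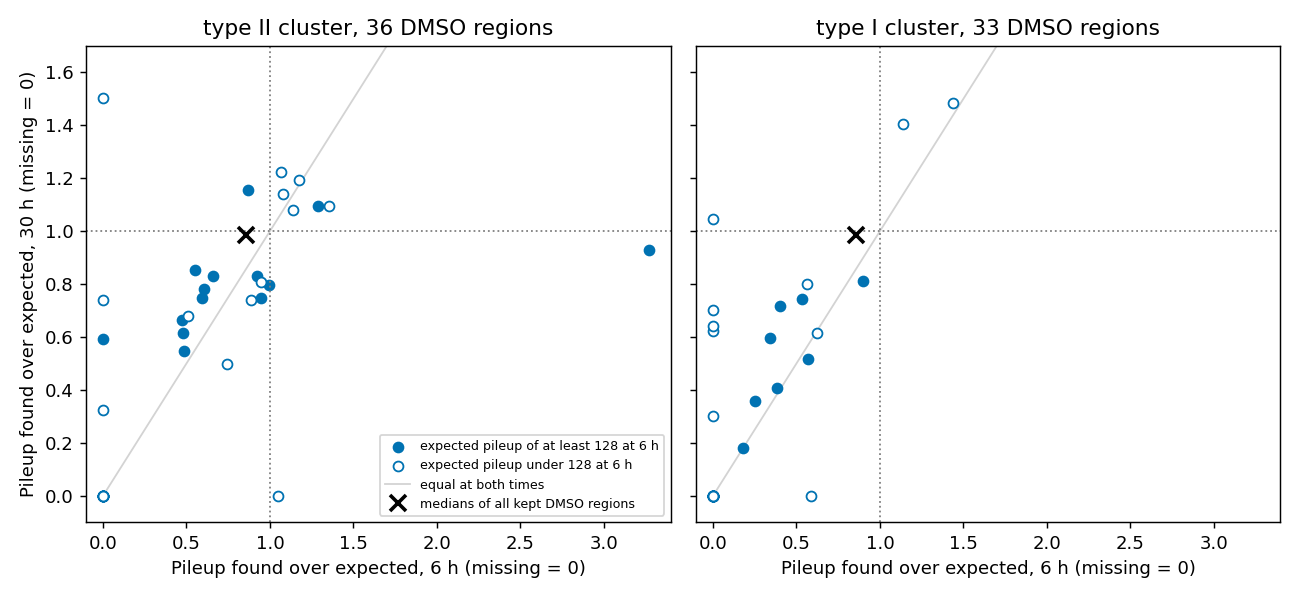
Pileup found over expected at 6 h (x) and 30 h (y) for each DMSO region of the type II (left) and type I (right) cluster, with missing regions at 0, filled points for an expected pileup of at least 128 at 6 h, dotted lines at 1 and a cross at the medians of all kept DMSO regions, 0.85 and 0.98. All filled type I points lie below 1 on both axes, as do most filled type II points. Open points lie on both sides of 1 in both clusters.

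In the type II cluster the members stood in stretches, defined here as runs with no gap above 50 kb between regions. The first ran from 101170026 to 101353750 and held 12 regions, of which 7 were kept at both times and 3 missing at both. The last ran from 101717738 to 101876671 and held 21 regions, of which 14 were kept at both times and 4 missing at both. Between them, after a gap of 171 kb, lay only 3 regions, and 2 of these were missing at both times. In the type I window the longest gap was 154 kb, from 99720663 to 99875046, and the 4 regions in the 2 short stretches before it were all missing at 6 h, 3 of them also at 30 h.

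The first type II stretch held the region of highest fold enrichment in either cluster, chr15:101212062-101212628, at 23.9. Its pileup was 555 in DMSO, 166 at 6 h and 297 at 30 h, or 0.47 and 0.66 of those expected. Nearby chr15:101200403-101201297 held 428, 163 and 270 reads, or 0.60 and 0.78. At chr15:101218142-101219196 the values were 207, 77 and 125, or 0.59 and 0.75, and at chr15:101206944-101207502 they were 184, 59 and 101, or 0.51 and 0.68. All 4 thus had fewer reads than expected at 6 h and were nearer to the expected pileup at 30 h. Relative to that pileup, 12 of the 22 type II regions kept at both times were higher at 30 h than at 6 h, against 70.3% of all such regions. At the edge of the window, the 2 weak regions chr15:101170026-101170315 and chr15:101172261-101172737, with 85 and 92 reads, were at 1.18 and 0.95 at 6 h and at 1.2 and 0.81 at 30 h.

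The last type II stretch held the regions of highest pileup. At chr15:101848143-101848888 the pileup was 856 in DMSO, 257 at 6 h and 425 at 30 h, or 0.48 and 0.62 of that expected. At chr15:101846470-101846932, less than 2 kb before it, the pileup was 824 in DMSO, 490 at 6 h and 496 at 30 h, or 0.94 and 0.75. Regions of near equal pileup in DMSO thus had unlike values at 6 h, with no test of the difference. Between them chr15:101847086-101847683, with 340 reads in DMSO, was missing at 6 h and had 163 reads at 30 h, 0.59 of that expected. Its main summit at 30 h lay 232 bp from that of DMSO.

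A like contrast stood just before this group. At chr15:101834145-101835213 the pileup was 709 in DMSO, 445 at 6 h and 456 at 30 h, or 1.0 and 0.80. At chr15:101837292-101837874 it was 541, 165 and 239, or 0.48 and 0.55. Between them chr15:101835738-101836074 held 339, 186 and 316 reads, or 0.87 and 1.15, so 3 regions within 4 kb had unlike values.

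Past the group, chr15:101855688-101856577 held 544 reads in DMSO, 225 at 6 h and 364 at 30 h, or 0.66 and 0.83. At chr15:101858348-101859190 the values were 544, 316 and 365, or 0.92 and 0.83, and at chr15:101863862-101865474 they were 186, 104 and 111, or 0.89 and 0.74. In chr15:101863862-101865474 the main summit lay 765 bp from that of DMSO at 6 h and 597 bp at 30 h. The last region of the window, chr15:101875316-101876671, had 618, 214 and 426 reads, or 0.55 and 0.85. All 4 were called at both times. The region of 251 reads that lay between the first pair, chr15:101856822-101857208, was missing at both times, although 158 reads were expected at 6 h and 203 at 30 h. It had a fold enrichment of 3.22 over a high local background of 77.2 reads.

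Some members of this stretch held more reads than expected at both times. At chr15:101804164-101804473 the pileup was 179 in DMSO, 153 at 6 h and 158 at 30 h, or 1.36 and 1.09, and at chr15:101807439-101808363 it was 308, 250 and 272, or 1.29 and 1.09. At chr15:101818655-101819116 it was 163, 117 and 142, or 1.14 and 1.08. The narrow region between the first pair, chr15:101806490-101806753, with 108 reads, was missing at both times. At the start of the stretch chr15:101772325-101772842, with 179 reads in DMSO, was missing at 6 h and had 47 at 30 h, 0.33 of that expected, and chr15:101769295-101770041 had 124, 58 and 50 reads, or 0.74 and 0.50. The only type II member missing at 30 h alone, chr15:101782851-101783771, had 123 reads in DMSO and 81 at 6 h, 1.05 of that expected.

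The weak type II regions outside these groups were mixed. Among those of high fold enrichment, chr15:101327554-101328147 had 79 reads in DMSO, 53 at 6 h and 78 at 30 h, and chr15:101602592-101603621 had 50, 34 and 46, all above the expected pileup. In contrast chr15:101256715-101257315 with 51 reads and chr15:101541047-101541429 with 49 were missing at both times. The region chr15:101353099-101353750, with 57 reads, was missing at 6 h and had 34 at 30 h, 0.74 of that expected. The other 5 weak regions held 36 to 68 reads and were missing at both times.

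Local background set the last type II stretch apart from most of the list. In DMSO 13 of the 36 type II regions had a background above 37.9 reads, the 95th percentile of all DMSO regions, and all 13 lay between 101818655 and 101876671. Their backgrounds ran from 38.8 to 108.3 reads, against a median of 9.18 over all DMSO regions, so their fold enrichments were only 2.38 to 15.5 at pileups of 163 to 856. In the type I cluster 1 of 33 regions passed that level. In the 6 h list 9 of 23 type II regions passed the 95th percentile of that list, 20.9 reads, and in the 30 h list 12 of 30 passed theirs, 28.2 reads. Of the 13 DMSO regions 2 were missing at 6 h and 1 at 30 h, 15.4% (4.33 to 42.2%) and 7.69% (1.37 to 33.3%), against 22.9% and 11.8% of the 2116 regions of like background in the whole list. The stretch that holds them also had high pileups, with a median of 251 reads over its 21 regions. No sample is labelled as an input control, and what raises the background there was not tested.

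**Figure D4:**
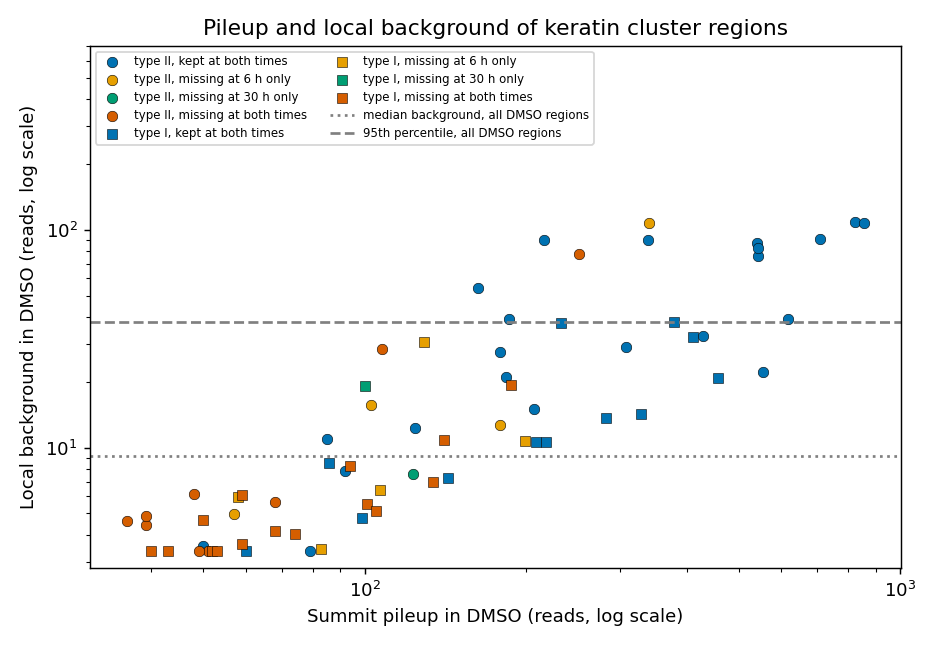
Local background against summit pileup in DMSO for each region of the type II (circles) and type I (squares) cluster, both in reads on log scales, coloured by fate after BRM014, with the median and 95th percentile of all DMSO regions as lines. The 13 type II regions above the 95th percentile of 37.9 reads have pileups from 163 to 856.

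The regions kept at both times were close to their DMSO width in the median of either cluster. At 6 h 12 of 22 type II and 9 of 12 type I regions were narrower than in DMSO, against 75.3% of all regions kept at both times, and at 30 h 11 and 7 were narrower, against 65.9%. The median width relative to DMSO was 96.6% and 94.0% at 6 h, against 91.5% over all such regions, and 100.2% and 98.0% at 30 h, against 96.1%. The main summit lay within 50 bp of the DMSO summit in 19 of 22 type II and 8 of 12 type I regions at 6 h, or 86.4% and 66.7%, against 88.7% of all. At 30 h it did so in 20 and in all 12, against 92.0% of all. Relative to the pileup expected, 12 of 22 type II and 8 of 12 type I regions were higher at 30 h than at 6 h, against 70.3% of all regions kept at both times.

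Few treated regions had no called region in DMSO. At 6 h 1 of 23 type II regions and 2 of 17 type I regions had no DMSO region, 4.35% (0.772 to 21.0%) and 11.8% (3.29 to 34.3%), against 7.42% of all 6 h regions. At 30 h there were 4 of 30 and 3 of 20, 13.3% (5.31 to 29.7%) and 15% (5.24 to 36.0%), against 17.9% of all 30 h regions. Of the new regions, 0 of 3 at 6 h and 0 of 7 at 30 h overlapped a region of the other treated list. Over the whole series 60.0% of the 1923 new 6 h regions and 16.8% of the 6894 new 30 h regions did so. The cluster counts are too small to differ clearly from these shares.

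The 10 new regions of both treated lists held 29 to 133 reads. At 6 h they were chr15:101801036-101801290 with 48 reads, chr11:99436986-99437288 with 32 and chr11:100000585-100001061 with 29. At 30 h the strongest by fold enrichment was chr11:99203101-99203579, at 11.8 with 43 reads, which lay 43.6 kb from the nearest DMSO region. It was followed by chr15:101228727-101229085, at 10.7 with 48 reads, only 270 bp from a DMSO region that was missing at both times. At chr15:101285766-101286197 there were 75 reads and at chr11:99419754-99420174 there were 30. At chr11:99519620-99520000 there were 62, only 408 bp from the DMSO region chr11:99520409-99520957, which was kept at both times. The last 2, chr15:101823223-101823803 with 91 reads and chr15:101844069-101844399 with 133, lay in the stretch of high background and had fold enrichments of 2.95 and 2.33.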

How the data were processed

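ATAC-seq was done on 6 samples in 3 groups of 2 biological replicates, and per the labels each deposited list was made from both replicates. Peaks were called with MACS2 2.1.2 on build mm9, as the labels give it, and the version is per the submitters' processing notes. The aligner, filters, transposase shift and caller options are not given in the sources used here. Per deposited entry the authors give a score, the fold enrichment (a ratio), -log10 p, -log10 q and the summit offset.

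Overlapping entries were merged into regions with the highest values of their entries, and regions of another list were followed by 1 bp overlap. Whole-number pileups and backgrounds were solved for each entry from its deposited ratio and -log10 p, assuming that the caller added 1 to both, and matched within 0.001 for 100% of entries. Depth was scaled by each list's lowest background (3.37, 2.12 and 2.72 reads in DMSO, 6 h and 30 h), taken as its genome average. Read totals were not used here. Solver and overlap were tested on simulated data. Python 3.11.15, scipy 1.17.1 and matplotlib 3.10.9 were used.

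Named were the 10 DMSO regions of highest fold enrichment per cluster, those missing at both times with at least 64 reads expected at 6 h or missing at 30 h only, and up to 5 new regions per list and cluster; other regions were chosen after their values were seen. Members and lists were chosen with earlier results of these data known. Region sequences and gene positions were not used here, because the annotation at hand is on GRCm38.p6. The extraction protocol in the labels also speaks of TGFβ, which no sample label carries.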

Additional observations from a re-analysis of the deposited data

How the results depend on the processing

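Values moved beyond their interval mainly where weak regions were left out, which the settings do by construction. With only regions at the highest score of 1000 followed, 13.6% of type II regions were missing at 6 h, 9.09% at 30 h and 4.55% in both treated lists, the type I cluster had 31.8% at 30 h, and no 6 h region of either cluster (0%) and no 30 h region of the type I cluster (0%) was new. With 25922 regions in every list, the type II cluster had 10.5% missing at 6 h, 10.5% at both times and 26.1% of its 6 h regions new. Whole-list shares under the score and equal-length settings are not given here. These values must therefore not be set beside the whole-list shares of the main setting. With an expected pileup of at least 64, chosen after the data were seen, type II shares were 20.8% at 6 h and 11.5% at 30 h, and the type I share was 31.8% at 30 h. The median pileup found over expected in the type I cluster was 0 at 6 h and 0.18 at 30 h with missing regions as 0, and 0.56 and 0.64 over kept regions alone. Another 13 values under these 4 settings stayed within their intervals, as did all 34 with an overlap of 50%, sharing within 500 bp, every entry counted, and the median of kept regions set to 1. The summit rule, summits inside the window and a -log10 q of at least 5 left all 30 values as they were, the last because no member was below 15.2. Of the 26 DMSO regions named by rule, an overlap of 50% made chr15:101602592-101603621 missing at 6 h and chr11:99916930-99917967 at 30 h, and sharing within 500 bp made chr15:101856822-101857208 kept at both times, chr11:100029306-100029940 at 6 h and chr11:99315340-99315803 at 30 h. No paired analysis was possible because the replicates are pooled in every list, and no replicate could be left out for the same reason. The 5th percentile of region pileups was 39 reads in DMSO, 31 at 6 h and 34 at 30 h, and what depth does to weak regions was not tested.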
